A study of Mus musculus with 79 samples.

Results

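The comparison described here is that of muscle from PER2 MKO mice with muscle from PER2 CTRL mice at ZT16, 16 h after lights on, in the dark, active phase of a mouse under the usual light cycle. It rests on 7 libraries, 4 PER2 MKO and 3 PER2 CTRL, of 79 in the series, and all 12952 genes of the authors' deposited table for that time were used. MKO is a muscle-specific knockout of Per2, and CTRL mice carry the genotype label WT. Each library came from its own mouse, and the same comparison was deposited at ZT0, 4, 8, 12 and 20 with mice of their own, 7 libraries at each except for 8 at ZT20. The Cre driver, the deleted part of Per2, the muscle taken, and the strain, age and sex of the mice are not given by the labels, so CTRL may differ from MKO in more than the loss of PER2. The deposited tables hold 1 log2 fold change per gene and time and no values per mouse, and the direction of that fold change is not stated. It is therefore given as positive or negative, never as higher or lower in the knockout.

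PER2 is a core repressor in the circadian clock. With its partners PER1, CRY1 and CRY2 it enters the nucleus and holds back the activators CLOCK and BMAL1, which bind E-boxes in the promoters of Per and Cry genes, of the nuclear receptor genes Nr1d1 and Nr1d2, and of output genes such as Dbp. Per2 transcript in peripheral tissues of the mouse is high around the start of the night. In skeletal muscle the clock times the use of glucose, fat and amino acids between rest and activity.

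ZT16 was the time with the fewest differences between PER2 MKO and CTRL muscle. In the authors' deposited table for ZT16, 105 of 12952 genes had an adjusted p under 0.05 and are referred to as called, which is 0.811% of the genes tested, 62 with a positive and 43 with a negative log2 fold change. At the other times the share was 2.7% at ZT0 (350 genes), 12.2% at ZT4 (1586), 1.78% at ZT8 (230), 3.34% at ZT12 (432) and 1.52% at ZT20 (197). An error derived from each fold change and its deposited likelihood ratio had a median of 0.14 at ZT16 and of 0.12 to 0.14 at the other times, but it may rest on a spread shared by the 6 tables, so whether the ZT16 libraries varied more cannot be read from it. The median size of the fold change over all genes was 0.08 at ZT16 and at ZT20, against 0.18 at ZT4. An unadjusted p under 0.05 was met by 818 genes at ZT16, 6.32% of those tested, and by 3880 (30.0%) at ZT4.

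The tissue label was met by the table. All 10 skeletal muscle markers looked for, among them the fast myosin genes Myh1 and Myh4, the creatine kinase gene Ckm and the titin gene Ttn, were measured, with mean log2 CPM between 10.3 and 16.1 beside a median of 3.51 over all genes. That mean is the same in all 6 tables, so it is a level over the PER2 set and not at ZT16. None of the 10 was called at ZT16. Fold changes at ZT16 did not follow transcript length, with a Spearman's rho of 0.02 across 11727 genes at 1 CPM or more, beside 0.52 at ZT4 and 0.44 at ZT12 (genes are not independent replicates).

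The targeted gene was not called. Per2 had a deposited log2 fold change of 0.38 ± 0.22 at ZT16 (derived error, adjusted p 0.899 in the authors' deposited table), and of -0.16, 0.46, 0.51, 0.70 and 0.31 at ZT0, 4, 8, 12 and 20. Whether reads from the undeleted part of the transcript are counted is not stated, so this value does not check the labels. None of 6 clock activators and ROR genes and none of 13 clock repressors and output genes was called at ZT16. Their median log2 fold changes were 0.11 and 0.07, beside -0.00029 for all genes. The nearest to the threshold was Nr1d1, which encodes the repressor REV-ERBα, at -0.60 ± 0.18 (adjusted p 0.0993). It was also negative at ZT20 (-0.91) and positive at ZT0 (0.20), ZT4 (0.50) and ZT8 (0.19), and it was called at 2 of the other times. Arntl, the gene of the activator BMAL1, stood at 0.10 ± 0.17 at ZT16, Clock at 0.15 ± 0.13 and Cry1 at 0.13 ± 0.09. The output genes Dbp (0.29 ± 0.22), Hlf (0.25 ± 0.12) and Tef (-0.09 ± 0.09) were likewise not called, each with an adjusted p of at least 0.678.

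Most genes called at ZT16 were called at other times too. Of the 105, 44 were called at all 6 times, 13 at 4 of the other 5, 11 at 3, 10 at 2 and 11 at 1, and 16 at ZT16 alone. No gene called at ZT16 and at another time had opposite signs at the 2 times. Of the 105, 95 (90.5%) had 1 sign at all 6 times, beside 2407 (18.6%) of all genes. The overlap with ZT20 was 64 genes, 61.0% of the ZT16 calls and 32.5% of the ZT20 calls, and that with ZT4 was 70 genes, 66.7% of the ZT16 calls and 4.41% of the ZT4 calls. The tables share no libraries, so the mice behind these overlaps differ.

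Direct tests found no gene whose ZT16 value departed from the other times. For each gene the ZT16 log2 fold change was set against the plain mean of the other 5, with a two-sided normal p from the derived errors, adjusted by Benjamini-Hochberg over all 12952 genes. It called 0 genes (0% of those tested), with a smallest adjusted p of 0.228. An unadjusted p under 0.05 was met by 535 genes (4.13%), 290 with a positive and 245 with a negative difference. With limma on the 6 values per gene the count was also 0, with 441 genes at an unadjusted p under 0.05. For a gene at 1 CPM or more the unadjusted 95% interval of the difference reached 0.28 to either side (median), and the adjusted test needed more than that. The same test called 5 genes at ZT0, 7 at ZT4, 1 at ZT8, 0 at ZT12 and 1 at ZT20. The plot of ZT16 against the mean of the other times shows the calls, apart from 13 below -5, with most of those called elsewhere too near the diagonal.

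**Figure D1:**
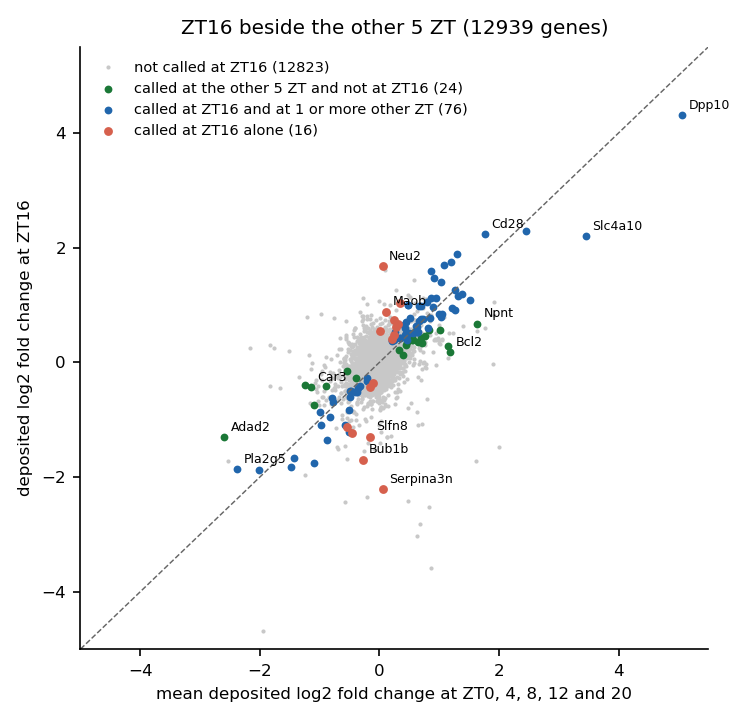
Deposited log2 fold change at ZT16 (y axis) against the plain mean of the deposited log2 fold changes at ZT0, 4, 8, 12 and 20 (x axis), 1 point per gene, for the 12939 genes above -5 at ZT16; the dashed line marks equal values. Most genes called at ZT16 and elsewhere (blue, 76) lie near the line. Of those called at ZT16 alone (red), Neu2 and Maob lie above it and Serpina3n, Bub1b and Slfn8 below it. The mean at the other times was 0.06 for Serpina3n and -0.28 for Bub1b.

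The 13 most negative values at ZT16 belonged to predicted genes that are copies of 1 repeated sequence. In the GENCODE M21 transcripts, 10 of them lie on chromosome 9, 2 on chromosome 2 and 1 on chromosome 14. They are shown because reads from such copies can be assigned to any of them, so that they may count as 1 signal and not as 13 genes. The first 60 bases of the Gm10718 transcript and the best ungapped match to them in 4 other copies are printed 5′ to 3′ from GENCODE M21 (GRCm38), with capitals for bases that differ from Gm10718.
Gm10718: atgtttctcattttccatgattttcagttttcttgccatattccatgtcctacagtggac
Gm10800: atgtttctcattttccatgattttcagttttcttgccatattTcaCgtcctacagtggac
Gm10801: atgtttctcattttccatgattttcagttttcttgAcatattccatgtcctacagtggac
Gm10715: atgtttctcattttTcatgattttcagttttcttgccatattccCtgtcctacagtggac
Gm10720: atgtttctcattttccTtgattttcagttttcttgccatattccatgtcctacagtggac
The other 8 copies held a stretch identical to the 60 bases of Gm10718, in Gm26870 on the opposite strand of its transcript. Between 36.2% and 94.4% of the 31-base words of each copy occurred in another of the 13, and no other GENCODE M21 gene held any of them. In the authors' deposited table Gm10718 stood at -10.22 ± 0.60 at ZT16 (derived error), Gm10800 at -10.34 ± 0.58, Gm10801 at -9.98 ± 0.66, Gm10715 at -9.43 ± 0.68 and Gm10720 at -8.04 ± 0.75. Over the 6 times and all 13 copies the values ran between -12.20 and -6.59, and all 13 were called at each time. A log2 fold change of this size needs very few reads in 1 genotype, and it is the authors' fitted value, not a bound. All 13 were named after their values were seen. With them left out and the p-values adjusted anew over the remaining genes, 87 genes were called at ZT16, 58 positive and 29 negative, and Pearson's r of ZT16 with the other times, across genes, was 0.19 to 0.41 in place of 0.59 to 0.79.

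The positive values were led by Dpp10, the predicted gene Gm13490, Cd28 and Slc4a10. Dpp10, which encodes an auxiliary subunit of A-type potassium channels, had the largest at 4.31 ± 0.99 (adjusted p 0.00342) but a mean level of only 0.386 CPM. Gm13490 stood at 2.29 ± 0.30 (adjusted p 6.93e-12) at a mean of 1.38 CPM, and the sodium and bicarbonate transporter gene Slc4a10 at 2.21 ± 0.44 and 0.782 CPM. All 3 were called at all 6 times, and Dpp10 and Slc4a10 are named although their level is under the limit of 1 CPM set for naming genes. Among genes at 1 CPM or more whose name is not that of a predicted gene, Cd28, which encodes a costimulatory receptor of T cells, was highest at 2.23 ± 0.36 (adjusted p 2.5e-07). It was positive at all 6 times, with lower values at ZT4 (1.42) and ZT20 (1.05) than at ZT12 (1.94) and ZT16. It was the 1 measured gene of the T and NK cell list. Musk, the receptor kinase that gathers acetylcholine receptors at the neuromuscular junction, stood at 1.19 ± 0.23 (adjusted p 8.71e-05), within its range of 1.08 to 1.56 at the other times.

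Most of the other highest values among named genes at 1 CPM or more were called at other times too. The DNA-degrading enzyme gene Dnase1 stood at 1.40 ± 0.18 (adjusted p 4.21e-12), the syntaphilin gene Snph, which anchors mitochondria in axons, at 1.25 ± 0.23, the P-type ATPase gene Atp13a5 at 1.16 ± 0.21 and the BMP receptor gene Bmpr1b at 1.13 ± 0.20. The spindle assembly factor gene Tpx2 stood at 1.08 ± 0.27. All 5 were called at all 6 times. Tceal7 (1.05 ± 0.27), the TEAD cofactor gene Vgll3 (1.01 ± 0.23) and the serine protease gene Htra4 (1.59 ± 0.37) were called at some of the times. Htra4 was negative at ZT0 (-0.17). Neu2 (1.68) and Tmem71 (1.03), also among these highest values, were called at ZT16 alone. Dmd, the dystrophin gene, is among the genes called at all 6 times, with 0.75 ± 0.13 at ZT16 (adjusted p 1.23e-06) and 0.52 to 0.77 at the others.

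The lowest values among named genes at 1 CPM or more included several seen at every time. Actc1, the cardiac actin gene that adult skeletal muscle expresses at low level, stood at -1.88 ± 0.46 (adjusted p 0.00985), and was between -1.26 and -2.40 at the other times. Pla2g5, a secreted phospholipase A2 gene, stood at -1.86 ± 0.37 and Mcm6, a subunit of the replication helicase, at -1.83 ± 0.32 (adjusted p 9.59e-06), both called at all 6 times. Tmem45b followed at -1.75 ± 0.23 (adjusted p 1.3e-11). Then came the NMDA receptor subunit gene Grin3b at -1.36 ± 0.28 and the calcium channel subunit gene Cacna2d4 at -1.22 ± 0.33. Cacna2d4 was called at only 1 other time, ZT20 (-1.16), and stood at -0.01 at ZT4 and -0.24 at ZT12. Fam83g (-1.10 ± 0.27) and the liprin gene Ppfia4 (-0.95 ± 0.24) were negative at all 6 times as well. Serpina3n, Ifi47 and Casr, also among these lowest values, were called at ZT16 alone.

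The 16 genes called at ZT16 alone were 9 positive and 7 negative, 15.2% of the ZT16 calls. The share of calls made at 1 time alone was 37.4% at ZT0, 75.3% at ZT4, 21.3% at ZT8, 23.1% at ZT12 and 14.2% at ZT20. Of the 16 genes 8 had 1 sign at all 6 times, and 11 had an unadjusted p under 0.05 at 1 or more other times. Among all genes such a p was met by 11.7%, 30.0%, 10.9%, 17.4% and 8.85% at ZT0, 4, 8, 12 and 20. The share of all genes that met it at 1 or more of these times was not computed, so the 11 are not read as differences. Absence of a call elsewhere is not absence of a difference either. For none did the difference from the other 5 times pass adjustment. By their choice the 16 lean to wide differences, so the unadjusted p of the difference, under 0.05 for 11 of them, and the intervals of single genes describe these genes and support nothing.

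Serpina3n, which encodes an acute-phase inhibitor of serine proteases, had the largest value of the 16. Its deposited log2 fold change was 0.19, -0.79, 0.17 and 0.55 at ZT0, 4, 8 and 12, -2.21 ± 0.57 at ZT16 (adjusted p 0.0176) and 0.20 at ZT20. Only ZT4 shared the sign of ZT16, and the difference from the other 5 was -2.28 ± 0.62 (95% interval -3.49 to -1.07, unadjusted p 0.000222, adjusted p 0.262). Neu2, a cytosolic sialidase gene, stood at 1.68 ± 0.44 (adjusted p 0.0237) with -0.31, -0.31, 0.48, 0.63 and -0.19 at ZT0, 4, 8, 12 and 20. Its difference was 1.62 ± 0.49 (adjusted p 0.525). These 2 genes had means within 0.1 of 0 over the other times.

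Maob and Lhpp showed the same form at a smaller size. Maob, the gene of a mitochondrial monoamine oxidase, stood at 0.88 ± 0.21 (adjusted p 0.00396) and between -0.06 and 0.25 elsewhere, a difference of 0.77 ± 0.23 (95% interval 0.33 to 1.21, adjusted p 0.423). Lhpp, a histidine phosphatase gene, stood at 0.55 ± 0.14 (adjusted p 0.0196), with a difference of 0.54 ± 0.16 (95% interval 0.24 to 0.85, adjusted p 0.418). The spindle checkpoint kinase gene Bub1b, under 1 CPM in mean level, stood at -1.69 ± 0.42, with a difference of -1.41 ± 0.46 (adjusted p 0.696). Tmem71 (1.03 ± 0.26), Ccnyl1 (0.67 ± 0.18), Zfp773 (0.62 ± 0.17), the efflux transporter gene Abcg2 (0.48 ± 0.11) and the synaptic scaffold gene Cask (0.41 ± 0.11) were positive at all 6 times. The calcium-sensing receptor gene Casr (-1.12 ± 0.31) and Ggnbp1 (-0.43 ± 0.11) were negative at all 6. Setd8, a histone H4 methyltransferase gene, stood at -0.36 ± 0.10. Of the last 8 genes, Tmem71, Ggnbp1 and Setd8 had an unadjusted p of the difference under 0.05. The predicted gene Gm12763 (0.74 ± 0.17) completed the 16 and was positive at all 6 times.

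**Figure D2:**
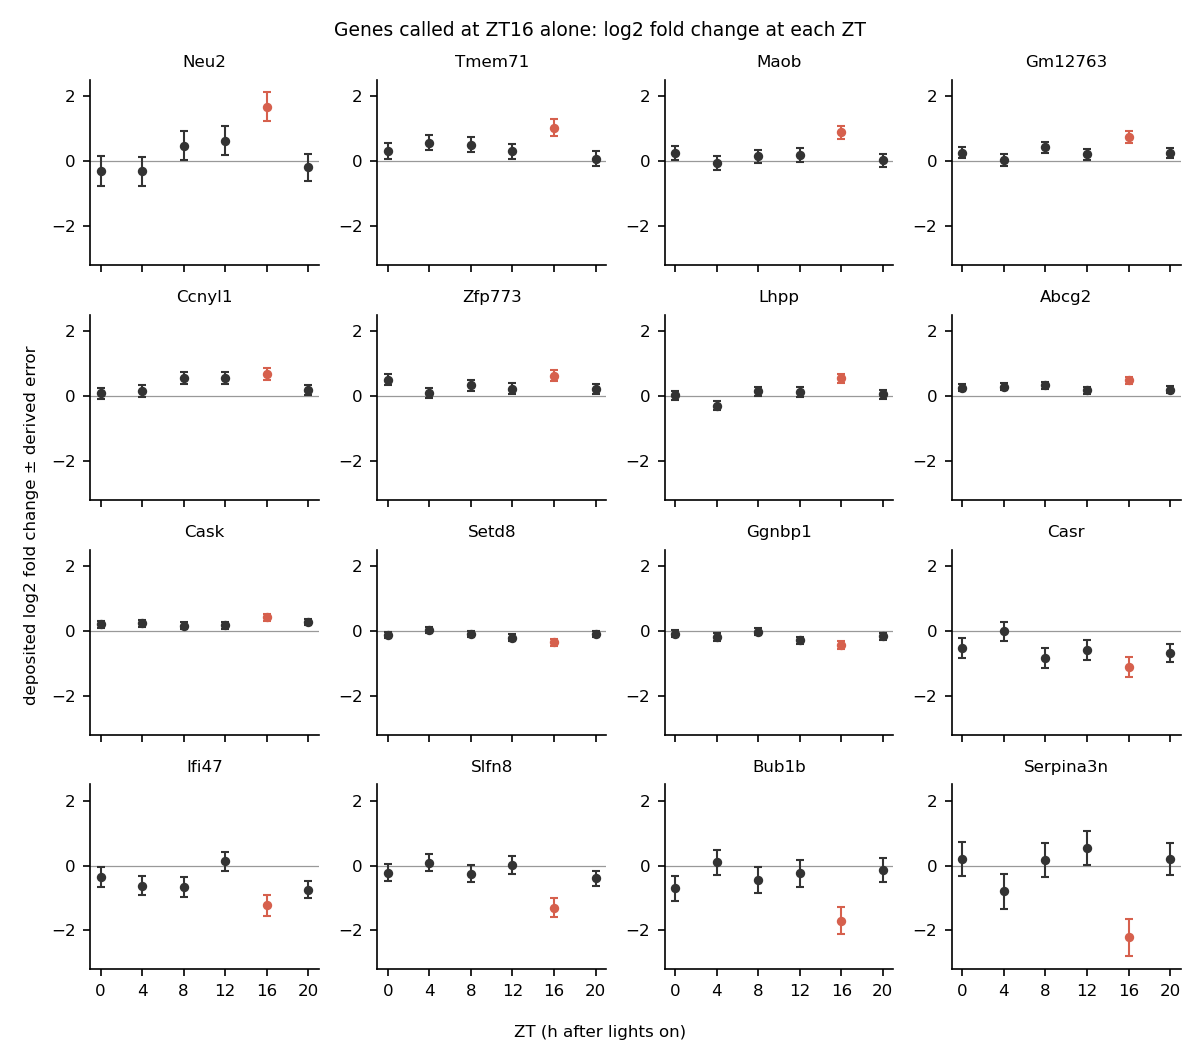
Deposited log2 fold change (y axis) at each ZT in hours after lights on (x axis) for the 16 genes called at ZT16 alone; points are the authors' values, bars the derived error, and ZT16 is in red. Serpina3n, Bub1b and Slfn8 at -2.21, -1.69 and -1.29 and Neu2 and Maob at 1.68 and 0.88 lie away from their other 5 values. Abcg2 and Cask lie closer to theirs. The 16 were chosen for a call at ZT16 and none elsewhere, which favours such gaps. For none of them did the difference from the other 5 times pass adjustment.

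Slfn8, Ifi47 and Irgm2, genes inducible by interferon that were named for their calls and not from a list, were called with negative values. Slfn8, of the schlafen family, stood at -1.29 ± 0.30 (adjusted p 0.00463, difference from the other times -1.14 ± 0.33, adjusted p 0.39) at a mean of 0.77 CPM. Ifi47, a GTPase gene induced by interferon gamma, stood at -1.23 ± 0.31 (adjusted p 0.0162), with a difference of -0.77 ± 0.34. Irgm2, another such GTPase gene, stood at -0.83 ± 0.18 (adjusted p 0.000669) and at -0.46 to -0.59 at the other times. In the list of interferon response and antigen presentation genes, which holds none of these 3, 0 of 17 were called, while 16 had a negative sign, Ifit3 stood at 0.10 ± 0.18 and 4 had an unadjusted p under 0.05. The 4 were Stat2 (-0.42 ± 0.16), Irf9 (-0.29 ± 0.13), Oasl2 (-0.56 ± 0.24) and the peptide transporter gene Tap1 (-0.69 ± 0.26). The list's median was -0.24 at ZT16, beside -0.01, -0.32, -0.36, -0.14 and -0.19 at ZT0, 4, 8, 12 and 20, so the sign was not particular to ZT16. The 9 measured macrophage markers had a median of -0.17 with 0 called, and their part in these values was not tested.

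The reverse pattern, genes called at all other times and missed at ZT16, was larger. It held for 24 genes, beside 44 that were called at ZT16 and at all the other times. In the same way 3 genes were missed at ZT0, 3 at ZT4, 4 at ZT8, 2 at ZT12 and 1 at ZT20. ZT16 also had the fewest calls, 105, beside 350, 1586, 230, 432 and 197 at ZT0, 4, 8, 12 and 20. Whether 24 misses are more than so few calls would give was not tested. These 24 were chosen after their values were seen, and by their choice they lean to small values at ZT16, so no test was made on the group. All 24 kept the sign of the other times, and 18 had an unadjusted p under 0.05 at ZT16. Bcl2, whose product restrains apoptosis, had a deposited log2 fold change of 0.18 ± 0.23 at ZT16, against 1.13, 1.62, 1.22, 0.91 and 1.02 at ZT0, 4, 8, 12 and 20. Its ZT16 value was 0.15 times the mean of the other times, and the difference had the smallest unadjusted p of all genes tested, 5.68e-05, and did not pass adjustment (0.228). Adad2, under 1 CPM in mean level, had the widest difference of the 24, 1.28 ± 0.48 (adjusted p 0.887). Its value was -1.31 ± 0.43 at ZT16 against -2.04 to -3.06 at the other times.

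Enzyme genes were among these 24. Odc1, the ornithine decarboxylase gene that starts polyamine synthesis, stood at 0.29 ± 0.24 at ZT16 against 0.88 to 1.40 at the other times (difference -0.85 ± 0.26, adjusted p 0.525). Car3, a carbonic anhydrase gene of slow muscle fibres and fat cells, stood at -0.43 ± 0.17 at ZT16, against -0.87 to -1.47, a difference of 0.72 ± 0.19 (adjusted p 0.228). Ppp1r1a, an inhibitor of protein phosphatase 1, stood at -0.39 ± 0.21, against -0.90 to -1.71 (difference 0.85 ± 0.23, adjusted p 0.257). The matrix gene Npnt (0.68 ± 0.28 at ZT16, mean of the other times 1.63, difference -0.96 ± 0.30), the secreted glutathione peroxidase gene Gpx3 (-0.41 ± 0.16, mean -0.89) and Itm2a (-0.14 ± 0.13, mean -0.54) were also smaller at ZT16. At the other end the iron exporter gene Slc40a1 (0.40 ± 0.12, mean 0.54) and Enpp4 (0.42 ± 0.12, mean 0.54) differed little and missed the threshold with adjusted p of 0.0702 and 0.0638.

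**Figure D3:**
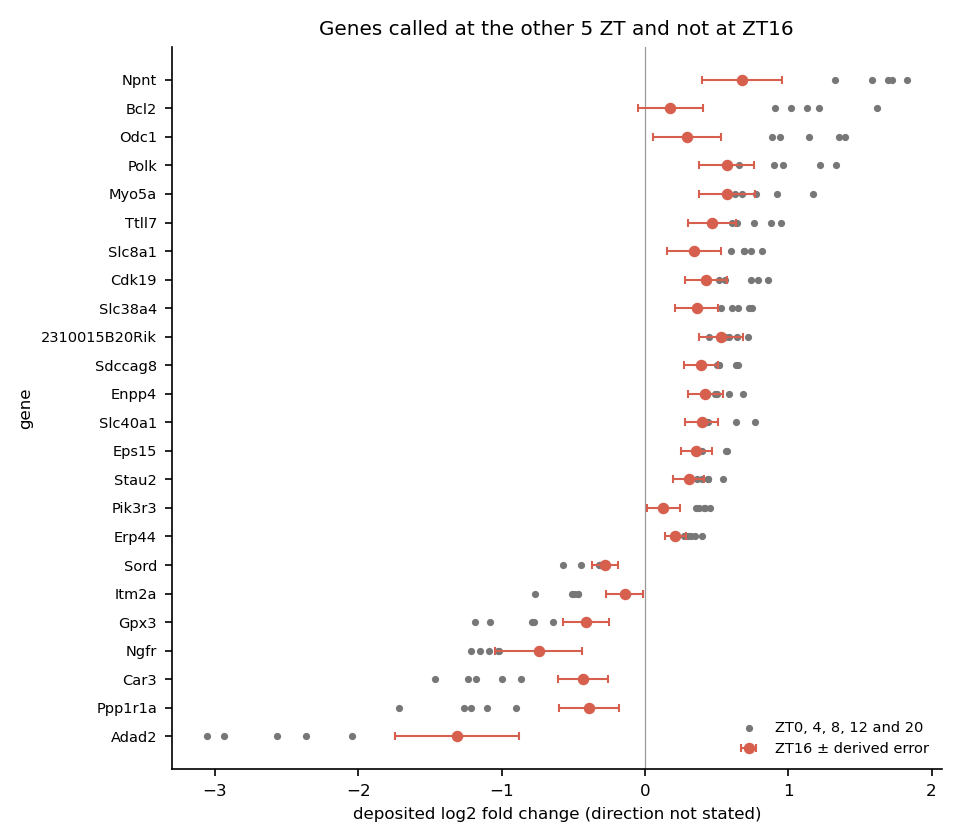
Deposited log2 fold changes (x axis) of the 24 genes called at ZT0, 4, 8, 12 and 20 and not at ZT16 (y axis, 1 gene a row); grey points are the other 5 times and the red point with its bar is ZT16 with its derived error. The ZT16 value is the nearest to 0, or close to it, in each row. The widest differences from the mean of the other times are in Adad2 (under 1 CPM in mean level), Bcl2 and Npnt.

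X-linked genes held 15 of the calls. They are 3.61% of 415 measured genes of the X chromosome, beside 0.811% of all genes, and all 15 were positive. The other calls, without the 13 repeat copies, were 47 positive and 30 negative, and of the 400 X-linked genes that were not called 208 were positive. Besides Dmd, Cask, Maob and Tceal7 the 15 hold Maoa (0.53 ± 0.15), which lies next to Maob, the E3 ubiquitin ligase gene Rnf128 (0.62 ± 0.15), Enox2 (0.60 ± 0.14), Tmem47 (0.66 ± 0.16), Nhs (0.96 ± 0.23) and Plp2 (0.37 ± 0.08). They also hold the predicted-type names 2610002M06Rik (1.12 ± 0.14, adjusted p 2.59e-13) and 2610018G03Rik (1.75 ± 0.25). Of the 15, 14 were positive at all 6 times, and 5 were called at all 6. At the other times 20, 52, 16, 22 and 13 X-linked genes were called at ZT0, 4, 8, 12 and 20, of which 18, 34, 15, 20 and 12 were positive. These are 4.82%, 12.5%, 3.86%, 5.30% and 3.13% of the X-linked genes, beside 2.7%, 12.2%, 1.78%, 3.34% and 1.52% of all genes. None of 7 Y-linked genes was called at ZT16, with values between -0.55 and 0.32. This grouping by chromosome was noticed in the data.

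**Figure D4:**
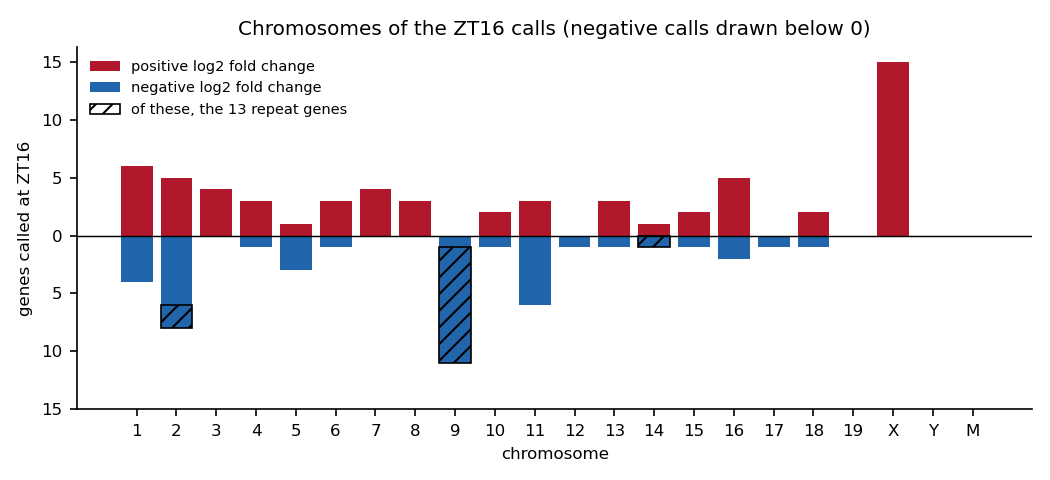
Number of genes called at ZT16 (y axis) on each chromosome (x axis), positive log2 fold changes above 0 and negative ones below; hatching marks the 13 repeat copies. The X chromosome has 15 positive and 0 negative calls, and 10 of the 11 negative calls of chromosome 9 are repeat copies.

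A group of X-linked calls are relatives that lie close together, Tceal5 (0.77 ± 0.15), Bex1 (0.99 ± 0.18), Tceal7 (1.05 ± 0.27) and Tceal3 (0.63 ± 0.17), all of the BEX and TCEAL family of small nuclear and signalling proteins. No other gene of the table lies between Tceal5, Bex1 and Tceal7 in the annotation. Their promoters are shown because each holds the E-box CACGTG to which CLOCK and BMAL1 bind. The stretches run 5′ to 3′ on the gene's strand, from 250 bases before to 50 after the start given by RefSeq (GRCm38.p6), with the E-box in capitals.
Tceal5, chrX:136203835-136204134 (- strand): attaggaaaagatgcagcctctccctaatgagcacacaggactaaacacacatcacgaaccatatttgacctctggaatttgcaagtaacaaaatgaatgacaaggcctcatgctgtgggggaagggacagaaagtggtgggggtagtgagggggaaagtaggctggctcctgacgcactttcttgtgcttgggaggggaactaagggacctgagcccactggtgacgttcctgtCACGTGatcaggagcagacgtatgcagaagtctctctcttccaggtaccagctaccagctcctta
Bex1, chrX:136215464-136215763 (- strand): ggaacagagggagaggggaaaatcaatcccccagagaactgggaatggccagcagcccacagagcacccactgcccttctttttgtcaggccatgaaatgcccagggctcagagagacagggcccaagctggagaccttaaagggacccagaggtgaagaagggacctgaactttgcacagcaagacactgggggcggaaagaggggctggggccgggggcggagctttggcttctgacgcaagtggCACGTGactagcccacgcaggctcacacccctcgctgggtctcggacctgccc
Tceal7, chrX:136223791-136224090 (+ strand): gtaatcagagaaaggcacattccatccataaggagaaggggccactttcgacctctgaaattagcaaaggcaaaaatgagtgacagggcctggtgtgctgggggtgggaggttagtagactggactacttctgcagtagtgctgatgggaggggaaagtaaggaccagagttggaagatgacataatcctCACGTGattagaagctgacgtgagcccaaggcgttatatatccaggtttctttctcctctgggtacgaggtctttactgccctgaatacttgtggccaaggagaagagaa
From the starts printed here, the E-box begins 15 bases before that of Tceal5, 3 before that of Bex1 and 60 before that of Tceal7. Another RefSeq start of Tceal5 places the same E-box 167 bases before it. For Tceal3, which is not printed, the E-box begins 3 bases after 1 RefSeq start and 233 before another. Of the 105 called genes 67 matched a RefSeq promoter by symbol, and 9 of the 67 (13.4%) held CACGTG, beside 11.8% of 9417 promoters of genes in the table. Besides the 4 relatives these were 2610002M06Rik, Tmem47, Dnase1, Ivns1abp and Ppfia4. The D-box TTATGTAA was in 0 of 67 and in 62 of 9417 (0.658%). The nuclear receptor half-site AGGTCA, searched like the others on both strands, was in 18 of 67 (26.9%) beside 15.1% of the 9417. A match in letters does not show that a factor binds there.

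Pathway lists held few ZT16 calls, as did the whole set of genes. Of 389 distinct genes in 27 pathway lists 4 were called at ZT16 (1.03%, near the 0.811% of all genes). Of the same genes 17 were called at ZT0, 79 at ZT4, 16 at ZT8, 19 at ZT12 and 11 at ZT20. Among all genes 2.7%, 12.2%, 1.78%, 3.34% and 1.52% were called at these times. The 4 called at ZT16 were Musk, Mcm6, Tpx2 and Actc1. In the list of DNA replication and mitosis Tpx2 was positive and Mcm6 negative, with 12 measured. Of 14 neuromuscular junction genes Musk alone was called, while Chrna1, the adult receptor's alpha subunit gene, stood at -0.37 ± 0.15 and Ncam1 at -0.45 ± 0.20 without a call. None of 22 fatty acid oxidation genes, 25 oxidative phosphorylation genes, 13 glycolysis genes or 23 cytosolic ribosomal protein genes was called, and their medians were -0.07, -0.06, -0.07 and 0.04. At ZT4 the same lists had medians of -0.30, -0.34, -0.30 and -0.40. Fold changes at ZT4 also followed transcript length across genes (Spearman's rho 0.52), and the part of length in these medians was not tested.

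Other lists held no call, and most members of some had 1 sign. Of 12 immediate early genes 10 were positive (median 0.24), with Jun at 0.54 ± 0.22 (adjusted p 0.4) and Ier2 at 0.60 ± 0.27. That list's median was 0.02, -0.08, 0.48, -0.47 and -0.05 at ZT0, 4, 8, 12 and 20. The atrophy list was mixed, with 11 positive, 7 negative, 0 of 18 called and a median of 0.07. In it Foxo1, a transcription factor that drives ubiquitin ligases of wasting muscle, stood at 0.44 ± 0.15 (adjusted p 0.201), Trim63, one such ligase, at 0.23 ± 0.10, Ddit4 at 0.77 ± 0.35 and Gadd45a at -0.48 ± 0.20, while the ligase genes Fbxo32 and Fbxo30 stood at -0.14 ± 0.20 and -0.20 ± 0.13. Of 10 slow fibre sarcomere genes 9 were positive, with a median of 0.31 at ZT16 and 0.27 at ZT20 but -0.30, -0.17, -0.20 and -0.16 at ZT0, 4, 8 and 12. Tnnc1 stood at 0.44 ± 0.39 and Myl2 at 0.44 ± 0.38, each little more than its error.

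Markers of other cell types did not pass the test, apart from Cd28. Of 11 Schwann cell genes 10 were positive (median 0.31), and all 8 white adipocyte genes were negative (median -0.45), with Adipoq at -0.49 ± 0.32, Lep at -0.76 ± 0.52 and Cfd at -0.41 ± 0.40. At the other times the Schwann cell medians ran between -0.40 and 0.08 and the adipocyte medians between -0.74 and 0.37, so neither kept its sign over the day. The 6 red blood cell genes had a median of 0.06 at ZT16, beside -1.32 at ZT4 and -0.99 at ZT12. Endothelial (-0.09), fibroblast (-0.09) and smooth muscle (-0.08) lists had medians near 0. Both measured B and plasma cell genes were negative, with Ighm at -1.97 ± 0.64 (adjusted p 0.156). In bulk muscle fewer cells of a type and less RNA per cell cannot be told apart, and the tables hold no value per mouse with which a list could be followed through the libraries.

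The ZT16 threshold cut through a run of close values. The 3 genes just inside it were Ankrd6 (0.60 ± 0.17, adjusted p 0.0468), Dusp8 (0.40 ± 0.11, 0.0479) and Wls (0.49 ± 0.14, 0.0479). The 3 just outside were Gna14 (0.84 ± 0.24, 0.0520), Sema3a (0.87 ± 0.25, 0.0522) and Hcn2 (0.92 ± 0.26, 0.0547), which are no smaller.

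The genes called in PER2 muscle at ZT16 were often called with the opposite sign in the other knockout. The authors' deposited RORA table for ZT16 gives RORA MKO over RORA CTRL, 3 libraries each and none shared with the PER2 set, and in it Rora itself stood at -1.71 ± 0.06 (adjusted p 3.14e-156). By symbol 11328 genes were in both tables, and 2562 of them (22.6%) were called in RORA, 1284 positive and 1278 negative. Of the 80 PER2 calls in both tables, 59 (73.8%) were called in RORA too, which is 2.30% of the RORA calls. In 56 of the 59 (94.9%) the 2 deposited values had opposite signs, beside 54.8% of all 11328 genes and 63.8% of the RORA calls. The 56 were 43 genes positive in PER2 and negative in RORA, and 13 the other way round.

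Htra4 had the widest gap between the deposited values, at 1.59 ± 0.37 in PER2 and -4.36 ± 0.25 in RORA (deposited error). The errors of the 2 sets are of unlike kinds. Snph, called in RORA, stood there at -0.26 ± 0.19 with a deposited adjusted p of 0.0311, which the value and its error alone would not give. Sizes and errors are therefore not comparable between PER2 and RORA. Cd28 stood at 2.23 in PER2 and -1.01 ± 0.17 in RORA, Musk at 1.19 and -0.72 ± 0.11, Dmd at 0.75 and -0.40 ± 0.06, and Actc1 at -1.88 in PER2 and 1.27 ± 0.22 in RORA. The 3 genes with 1 sign in both were Pla2g5 (-1.86 in PER2, -2.04 ± 0.29 in RORA), the Rac activator gene Tiam1 (-0.86 and -1.98 ± 0.13) and Eif2ak1, the gene of a heme-regulated kinase (-0.27 and -0.11 ± 0.04). All 13 X-linked PER2 calls found in the RORA table had the opposite sign there, and 11 of them were called. Of the 14 genes called at ZT16 alone that were in both tables, 6 were called in RORA, Neu2, Maob, Lhpp, Abcg2, Cask and Ccnyl1, each negative there and positive in PER2, whereas Serpina3n stood at -0.04 ± 0.11 and Slfn8 at 0.01 ± 0.13. As the direction of the PER2 fold change is not stated, opposite signs do not say whether the 2 knockouts moved these genes apart or together. None of the 13 repeat copies was in the RORA table used here by symbol.

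**Figure D5:**
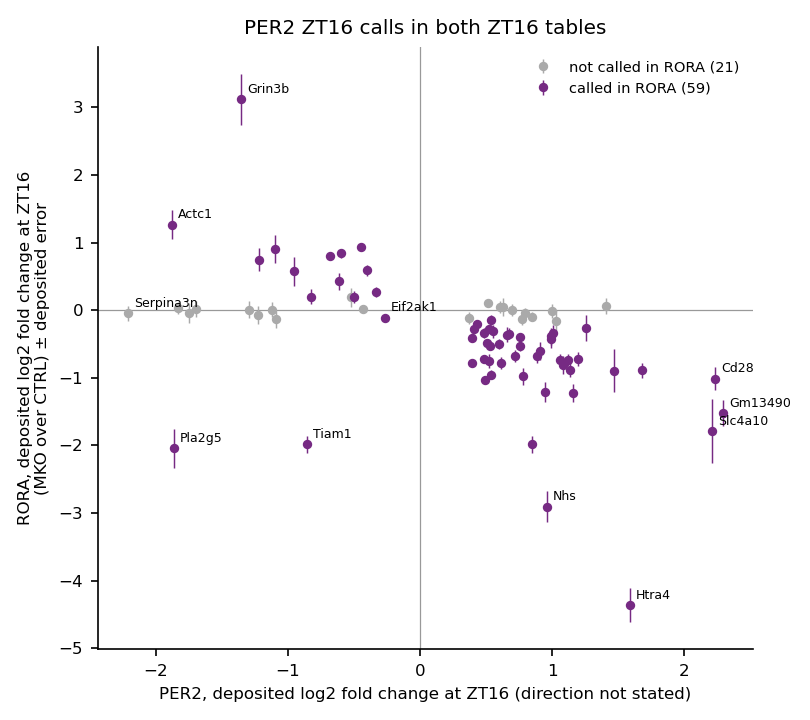
Deposited log2 fold change at ZT16 in PER2 (x axis, direction not stated) and in RORA (y axis, RORA MKO over RORA CTRL, bars show the deposited error) for the 80 genes called in PER2 and listed in both tables; purple points were called in RORA. Nearly all purple points lie in the upper left and lower right parts, with Pla2g5, Tiam1 and Eif2ak1 in the lower left.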

How the data were processed

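RNA of mouse muscle was extracted with an organic reagent and columns and made into stranded poly-A libraries, per the labels' protocols. Among the tools in the submitters' processing notes are STAR, DESeq2 and R 4.1, and mm9 and GRCm39 are both listed as builds, without saying what each was used for. Read counter, annotation and library depths are not given in the sources used, so no interval from read counts is given. Per the file headers, each PER2 table gives for 12952 genes the likelihood ratio (a score), the p-value with its adjusted p, the log2 fold change and the mean log2 CPM. The mean log2 CPM the authors deposited was identical in the 6 tables. Per the file headers, the RORA table for ZT16 gives p-values, adjusted p and log2 fold changes with errors. No test for counts could be used, since the deposited files give no counts.

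The error of a PER2 value was derived by dividing the absolute log2 fold change by the root of the deposited likelihood ratio. A gene was called when the deposited adjusted p was under 0.05. The difference of ZT16 from the mean of the other 5 times was tested with a two-sided normal p, adjusted by Benjamini-Hochberg over all genes, with limma 3.58.1 (R 4.3.3) on the 6 values per gene as an alternative, and both were tested on simulated data. Gene lists are described by counts and medians with no set test. The rule for named genes takes Per2, called clock genes, the 12 highest and 12 lowest calls at 1 CPM or more not named as predicted genes, up to 12 calls made at ZT16 alone, up to 20 called at all 6 times, called list members, the 2 smallest p of each pathway list and the 3 genes on either side of the threshold. One gene that the rule takes is not reported here. Other genes were named after their values were seen. The members and lists were chosen with earlier results of these data known. RefSeq (GRCm38.p6) and GENCODE M21 (GRCm38) gave chromosomes for 12875 genes, promoters and transcripts, and no coordinates were carried to the builds of the notes. Python 3.11.15, NumPy 2.4.6, pandas 2.3.3, SciPy 1.17.1 and matplotlib 3.10.9 were used.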

Additional observations from a re-analysis of the deposited data

How the results depend on the processing

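The count of ZT16 calls was 70 at an adjusted p under 0.01, 144 under 0.1, 98 among genes at a mean log2 CPM of at least 0 and 76 at 2 or more, and the split stayed on the positive side under each. With a log2 fold change of at least 1 in size required as well it was 47, and the split turned to 20 positive and 27 negative, of which 13 are the repeat copies. Of the calls at ZT16 alone, 5 remained when an unadjusted p of at least 0.05 was asked at the other times. The difference of ZT16 from the other times called 0 genes under 11 of 12 alternatives (weights, errors, limma, centring, level and leaving out 1 time), and 1 without ZT4 and ZT12, Adra1a, the alpha-1A adrenergic receptor gene, at 0.81 ± 0.17 (adjusted p 0.0157), where fewer times are averaged. The smallest adjusted p was between 0.0675 and 0.718 under the other 11. For the 16 genes called at ZT16 alone the difference kept its sign, and none passed adjustment, under other weights, with limma, with centring and without 1 or 2 of the other times. A single gene's value at ZT16 is the deposited one, so a limit on level can move only its call, and it moved none. The alternatives without the repeat copies were chosen after seeing the data. No paired analysis was possible because the tables hold no values per library, and leaving out a library could not be run for the same reason.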

Other observations

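Genes with the smallest p for the difference of ZT16 from the other times, none of them past adjustment, include several not called at ZT16. Nos1, the neuronal nitric oxide synthase gene of the muscle membrane, had a deposited log2 fold change of -0.80 ± 0.30 at ZT16, against 0.15, 0.87, 0.60, 0.44 and 0.29 at ZT0, 4, 8, 12 and 20 (difference -1.27 ± 0.33, adjusted p 0.228). Otog stood at -0.02 ± 0.45 at ZT16 and at 1.34 to 2.87 at the other times. The neurexin-related gene Cntnap2 stood at 1.02 ± 0.29 at ZT16 (adjusted p 0.0549 there) and -0.55 to 0.28 elsewhere. Wdfy1 (-0.51 ± 0.19 at ZT16, 0.14 to 0.41 elsewhere) and the platelet glycoprotein gene Gp1ba (-0.36 ± 0.13, 0.03 to 0.41 elsewhere) were negative at ZT16 alone. These genes were named after their values were seen.

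Another 8 genes had a ZT16 log2 fold change of at least 2 in size without a call, all negative, with a median derived error of 1.08. Socs1, a suppressor of cytokine signalling, stood at -2.35 ± 0.79 (adjusted p 0.192), the histidine ammonia lyase gene Hal at -2.53 ± 1.04 and the serum albumin gene Alb at -2.42 ± 0.87. The predicted genes Gm10600 (-3.58 ± 1.45), Gm2163 (-3.02 ± 1.13) and Gm3893 (-2.82 ± 1.21), all on chromosome 4, were positive at ZT0 and ZT4 and within 0.35 of 0 at ZT8, 12 and 20.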
